A study of Mus musculus with 36 samples.

Results

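The genes described are 10 enzymes of serine synthesis and of the folate-bound one-carbon pathway, read in the brains of 36 mice that lacked or carried the complex I gene Ndufs4. They were chosen by name and by no rule on measured values, but with earlier results of these data known. All 10 were found among the 56980 gene identifiers of the count table by matching symbols to Ensembl identifiers. All 10 also passed the filter on low counts that left 25601 genes for testing. They fall into 3 sets. Phgdh, Psat1 and Psph make serine. Shmt1 and Mthfd1 handle folate in the cytosol, and Shmt2, Mthfd1l, Mthfd2, Mthfd2l and Aldh1l2 handle it inside mitochondria. The question asked of them is whether the mitochondrial and the cytosolic enzymes differ in how they follow loss of Ndufs4 and a complex I inhibitor.

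The mice, aged 37 to 45 days, either lacked Ndufs4 (knockout, KO) or were wild type (WT), and were given CP2 or vehicle by mouth for 3 days. CP2 is a small molecule that inhibits mitochondrial complex I, and Ndufs4 encodes a subunit of that complex. The sample titles carry a letter, F or M, and a number of their own (L201, for instance). Among brains with the letter F there were 5 in each of the 4 combinations of genotype and treatment. Among those with the letter M there were 5 of each genotype with CP2 and 3 of each genotype with vehicle. The sources used here do not say whether the knockout was in the whole animal or which allele was used. The series' text names hippocampus and cortex, whereas every sample is labelled only as brain, and how much of either region a sample held is unknown.

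Serine is made from the glycolytic intermediate 3-phosphoglycerate by PHGDH, PSAT1 and PSPH in turn, and in the brain this route is known mainly from astrocytes and other glia. A serine hydroxymethyltransferase, SHMT2 in mitochondria or SHMT1 in the cytosol, then passes a carbon of serine to tetrahydrofolate and leaves glycine. In mitochondria MTHFD2 or MTHFD2L oxidises this carbon, MTHFD1L releases it as formate, and ALDH1L2 can burn it to carbon dioxide, whereas in the cytosol MTHFD1 interconverts these folate forms and formate and feeds purine, thymidylate and methionine synthesis. MTHFD2 and the serine synthesis genes are textbook targets of the transcription factor ATF4, which is known to be switched on by mitochondrial stress in many cells.

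The results turn on Mthfd2 and Mthfd1l, neighbouring steps of the mitochondrial route that moved in opposite directions between genotypes, and the stretches upstream of both genes are shown here for that reason. Both are taken from RefSeq promoters of the mouse build GRCm38.p6 and run 5′ to 3′ over the 250 bases before the annotated start of the gene. Capitals mark a CCAAT box on either strand in Mthfd2, and in Mthfd1l a GC box (GGGCGG) and a CRE half-site (TGACG), both on the reverse strand.
Mthfd2, chr6:83317605-83317854, minus strand: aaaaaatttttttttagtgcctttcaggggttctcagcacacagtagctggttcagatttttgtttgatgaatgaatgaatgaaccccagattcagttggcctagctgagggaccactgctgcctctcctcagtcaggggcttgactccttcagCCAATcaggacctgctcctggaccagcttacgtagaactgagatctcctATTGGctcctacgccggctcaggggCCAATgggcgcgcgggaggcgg
Mthfd1l, chr10:3972825-3973074, plus strand: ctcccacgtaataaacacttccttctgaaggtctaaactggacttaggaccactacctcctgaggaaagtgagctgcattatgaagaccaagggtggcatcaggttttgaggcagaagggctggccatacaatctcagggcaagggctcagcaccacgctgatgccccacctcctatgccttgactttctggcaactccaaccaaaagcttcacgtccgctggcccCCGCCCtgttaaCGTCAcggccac

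Mthfd2 held 3 CCAAT boxes, with the nearest ending 18 bases before the start, and Mthfd1l held none. Of the 10 genes, 9 were in the promoter table, all but Aldh1l2. CCAAT, searched on both strands, was present in 6 of the 9 (Phgdh, Psat1, Psph, Shmt1, Mthfd1 and Mthfd2) and in 33.8% of 32851 mouse promoters of this length. The GC box was present in 5 of the 9 and in 32.7% of all, and TGACG in Shmt1 and Mthfd1l and in 17.8% of all. TGATGNAA, the composite element read by ATF4 with a C/EBP partner, was in 0 of the 9 and in 3.45% of all, and the E-box CACGTG in 0 of the 9 and in 6.02% of all. Each motif was searched on its own, so matches of different motifs may overlap, and a match is a string of letters, not a site shown to be used.

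Gene counts summed to between 4.61e+07 and 8.86e+07 per brain (median 5.47e+07), and the least abundant enzymes still had at least 118 counts in every brain. The targeted gene Ndufs4 lay between 27.4 and 39.1 CPM (counts scaled to library size) in KO and between 38.9 and 62.8 CPM in WT, and within each letter and treatment every KO brain was below every WT brain. Xist was 0.83 CPM or less in all M brains but L291, a KO with CP2, which had 47.3 CPM. The share of reads placed outside annotated genes, a sign of RNA or library quality, ran from 5.09% to 13.2% and differed between groups: it was 5.18% to 9.06% in KO M with CP2 and 11.3% to 13% in KO M with vehicle. The brain label held against its markers: Snap25 of neurons had a median of 1697 CPM, Slc1a2 of astrocytes 2891 CPM and Mbp of oligodendrocytes 4325 CPM, and in 11 lists of cell type markers no gene was at 0 in any brain. The labels do not say that samples of a group came from separate litters or preparations, so p-values measure the spread between these samples. In bulk tissue, fewer cells of a type and less RNA per cell cannot be told apart.

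Compared per kilobase of exon, the serine synthesis genes Phgdh and Psat1 were the most abundant of the 10, with medians over all 36 brains of 37.1 and 31.6 CPM per kb. Mthfd1, the cytosolic trifunctional enzyme, followed at 9.30 and Shmt2 at 5.95 CPM per kb. Psph, the last step of serine synthesis, had 4.05, and the mitochondrial formate-releasing enzyme Mthfd1l 3.26 CPM per kb. The mitochondrial dehydrogenases Mthfd2 and Mthfd2l were lower and close to each other, at 2.19 and 2.00 CPM per kb, and Mthfd2 was the higher in 20 of 36 brains. Shmt1 (0.766 CPM per kb) and Aldh1l2 (0.596) were lowest, and their order also varied, with Shmt1 above Aldh1l2 in 28 of 36 brains. Mthfd1 stayed above Shmt2, and Shmt2 above Psph, in all 36 brains, while Phgdh was above Psat1 in 35 and Psph above Mthfd1l in 30. Per kilobase, the mitochondrial Shmt2 was above the cytosolic Shmt1 in all 36 brains, and the cytosolic Mthfd1 was above Mthfd1l, Mthfd2 and Mthfd2l in all 36. Some of these orders depend on the exon lengths used. In median CPM not divided by length, Psat1 (134) was above Phgdh (92.2) and Mthfd2l (13.3) above Mthfd2 (7.63). Aldh1l2 (4.47) was likewise above Shmt1 (2.98).

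**Figure D1:**
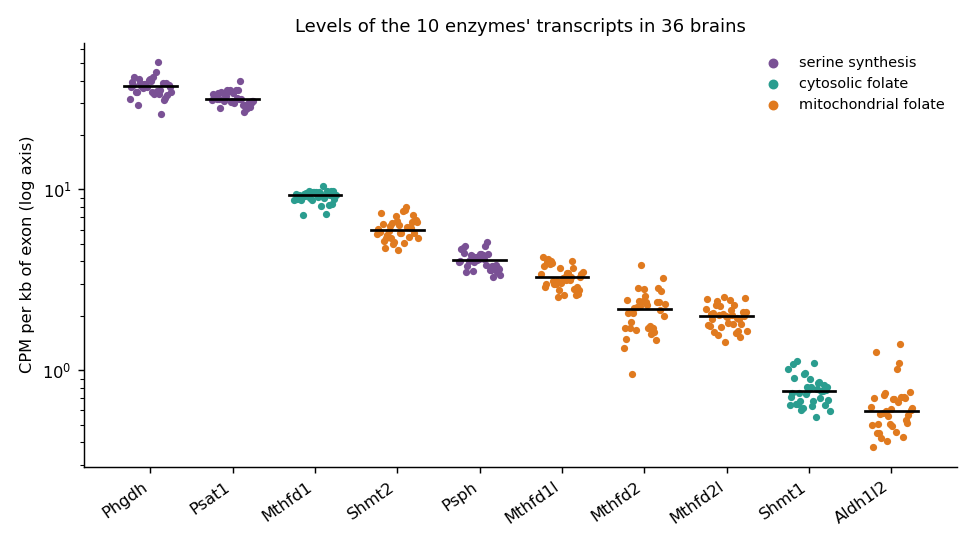
Level of each of the 10 enzymes in CPM per kb of exon, on a log axis, with 1 point per brain (36 brains) and a bar at the median. Phgdh and Psat1 lie far above the rest (medians of 37.1 and 31.6) and Shmt1 and Aldh1l2 at the bottom (0.766 and 0.596).

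Averaged over letters and treatments, 2 of the 10 enzymes differed between KO and WT: Mthfd2 fell and Mthfd1l rose. The other 8 did not pass the threshold, an adjusted p under 0.05 over all genes tested, and their log2 differences lay between -0.06 and 0.17. In this comparison 16.2% of all tested genes were called, so a count of 2 in 10 is close to the background. Both are mitochondrial, and 0 of the 2 cytosolic folate enzymes and 0 of the 3 serine synthesis enzymes were called. The median log2 difference of the 5 mitochondrial enzymes was 0.02 and that of all tested genes also 0.02. Both calls were thus single mitochondrial members with opposite signs. In the same comparison 4 of 4 red cell markers were called lower in KO, 2 of 6 mural and fibroblast markers (Dcn and Pdgfrb) higher, and of 6 microglia markers 2 higher and 1 lower. Gfap, 1 of 8 astrocyte markers, and Slco1a4, 1 of 5 endothelial markers, were called higher, and of 7 hippocampal markers Wfs1 was called higher and Dsp lower. The other 5 marker lists had 0 called, and the part of these cell types in the 2 enzyme calls was not tested.

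Mthfd2, the NAD-dependent mitochondrial dehydrogenase that is scarce in most adult tissues, had lower counts in KO brains. In F with vehicle, the 5 KO brains had 5.98, 6.46, 3.33, 7.19 and 7.72 CPM and the 5 WT brains 13.3, 8.40, 9.77, 8.97 and 8.33 CPM. In M with vehicle, the 3 KO brains had 5.97, 5.67 and 5.14 CPM and the 3 WT brains 11.2, 6.96 and 8.10 CPM. In both letters every KO brain given vehicle was below every WT brain given vehicle. With CP2 in F, KO brains had 4.63, 5.99, 5.18, 8.50 and 7.21 CPM and WT brains 5.84, 7.82, 9.98, 8.42 and 7.90 CPM, and the groups overlapped. With CP2 in M, KO brains had 8.02, 5.99, 6.10, 5.57 and 5.95 CPM and WT brains 8.34, 9.99, 8.29, 7.54 and 9.61 CPM. There the single KO brain at 8.02 CPM, L266, reached into the WT range.

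Over all 4 strata Mthfd2 fell by 0.53 on the log2 scale in KO (SE 0.097, edgeR adjusted p = 0.000132), a decrease to 0.692 of the WT level. It remained called without each of the 36 brains in turn (log2 change between -0.57 and -0.48). With vehicle, averaged over F and M, Mthfd2 was the 1 enzyme of 10 that was called, against 6.67% of all tested genes (log2 change -0.66, SE 0.15, edgeR adjusted p = 0.00462). When the outside-gene share was added as a covariate, this vehicle value became -0.48 and was no longer called (edgeR adjusted p = 0.135). That share was 6.19% to 11.7% in KO F with vehicle and 5.09% to 7.04% in WT F with vehicle, and its part in the result was not tested beyond this fit. Over all 4 strata the same covariate left Mthfd2 at -0.50 and called (edgeR adjusted p = 0.0002).

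Within F with vehicle, 2 of the 10 enzymes were called, Mthfd2 at -0.67 (SE 0.18, edgeR adjusted p = 0.0235) and Mthfd1l at 0.38 (SE 0.095, edgeR adjusted p = 0.017), against 4.96% of all tested genes. These were also the 2 enzymes whose groups did not overlap there, which held for 4.7% of all tested genes. Both calls ended without the WT brain L252, at -0.53 for Mthfd2 (edgeR adjusted p = 0.0966) and 0.35 for Mthfd1l (edgeR adjusted p = 0.0516). The Mthfd2 call ended without the KO brains L246 (-0.65, edgeR adjusted p = 0.0528) or L281 (-0.50, edgeR adjusted p = 0.098), and the Mthfd1l call without the WT brain L296 (0.33, edgeR adjusted p = 0.0666). Neither was called with the outside-gene share as a covariate, at -0.45 for Mthfd2 (edgeR adjusted p = 0.323) and 0.35 for Mthfd1l (edgeR adjusted p = 0.133).

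Within M with vehicle, 0 of the 10 enzymes were called by edgeR and 0 by DESeq2, against 0.516% of all tested genes by edgeR, and 1 had an unadjusted p under 0.05 by either tool. That enzyme was Mthfd2, whose log2 change of -0.65 (SE 0.23, edgeR adjusted p = 0.196) was nearly that of F. Its 3 KO brains lay below its 3 WT brains, as 20.9% of all tested genes also did not overlap in this comparison. The difference between letters in the KO change was -0.02 for Mthfd2 (95% interval -0.59 to 0.55, edgeR adjusted p = 0.998), an interval too wide to show that F and M were alike.

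With CP2 on both sides, averaged over F and M, 3 enzymes were called against 11.6% of all tested genes: Mthfd2 fell by 0.41 (SE 0.13, edgeR adjusted p = 0.0286), and Mthfd1l and Psph rose. The Mthfd2 call ended without any one of L201, L227, L257, L262 or L299, with values between -0.39 and -0.36 and edgeR adjusted p between 0.0512 and 0.0657. Within F with CP2, 0 of the 10 were called by edgeR or DESeq2, against 2% of all tested genes by edgeR, and 1, Mthfd1l, had an unadjusted p under 0.05 by edgeR. Within M with CP2, Mthfd2 was at -0.47 (SE 0.18, edgeR adjusted p = 0.09) and was called by DESeq2 (-0.48, adjusted p = 0.0484). With the outside-gene share as a covariate that value became -0.79 and was called (edgeR adjusted p = 0.034). The covariate thus moved Mthfd2 toward 0 with vehicle and away from 0 with CP2 in M. The M value was also called without L281, a KO F brain with vehicle that enters only the shared estimate of spread (edgeR adjusted p = 0.0468).

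**Figure D2:**
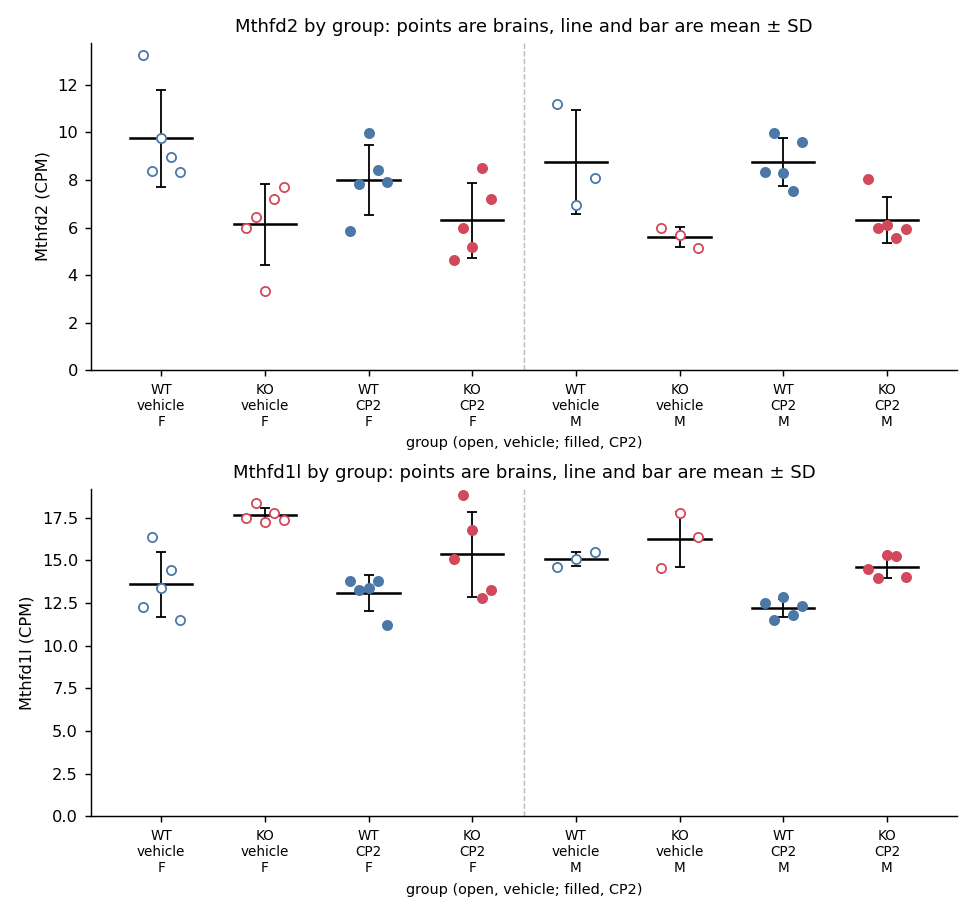
Mthfd2 (top) and Mthfd1l (bottom) in CPM for each brain by genotype, treatment and letter, with open points for vehicle, filled points for CP2, and a line and bar for the group mean ± SD. Mthfd2 was lower in KO than in WT in each of the 4 pairs of group means, and Mthfd1l was higher.

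Mthfd1l, the mitochondrial ligase that releases formate for the cytosol, moved the other way. In F with vehicle, the 5 KO brains had 17.5, 18.3, 17.2, 17.8 and 17.3 CPM, a narrow range, and the 5 WT brains 12.2, 16.4, 13.4, 14.4 and 11.5 CPM. In M with vehicle, KO brains had 14.6, 17.8 and 16.4 CPM and WT brains 14.6, 15.1 and 15.5 CPM. The groups were apart in F and overlapped in M. With CP2 in F, KO brains had 15.1, 18.8, 16.8, 12.8 and 13.2 CPM and WT brains 13.8, 13.2, 13.4, 13.8 and 11.2 CPM. With CP2 in M, KO brains had 14.5, 14.0, 15.3, 15.3 and 14.0 CPM and WT brains 12.5, 11.5, 12.9, 11.8 and 12.3 CPM. In M with CP2 all 5 KO brains were above all 5 WT brains.

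Over all 4 strata Mthfd1l rose by 0.24 on the log2 scale in KO (SE 0.052, edgeR adjusted p = 0.000777), to 1.18 times the WT level. It was called without each of the 36 brains in turn (0.23 to 0.26) and with the outside-gene share as a covariate (0.24, edgeR adjusted p = 0.00122). With vehicle, averaged over F and M, it missed the threshold narrowly (0.24, SE 0.078, edgeR adjusted p = 0.0515) and was called by DESeq2 (0.26, adjusted p = 0.0167). Leaving out L277, L283 or L310 from that comparison brought it under the threshold, with values between 0.25 and 0.28, as did leaving out any one of L201, L216, L227, L228, L233, L234 or L311, CP2 brains that enter only the shared estimate of spread. With CP2, averaged over F and M, it was called (0.25, SE 0.068, edgeR adjusted p = 0.0127) and stayed called without each of the 20 brains of that comparison. Within M with CP2 its 0.26 was not called (SE 0.096, edgeR adjusted p = 0.0754), and 11.1% of all tested genes also had groups that did not overlap there.

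**Figure D3:**
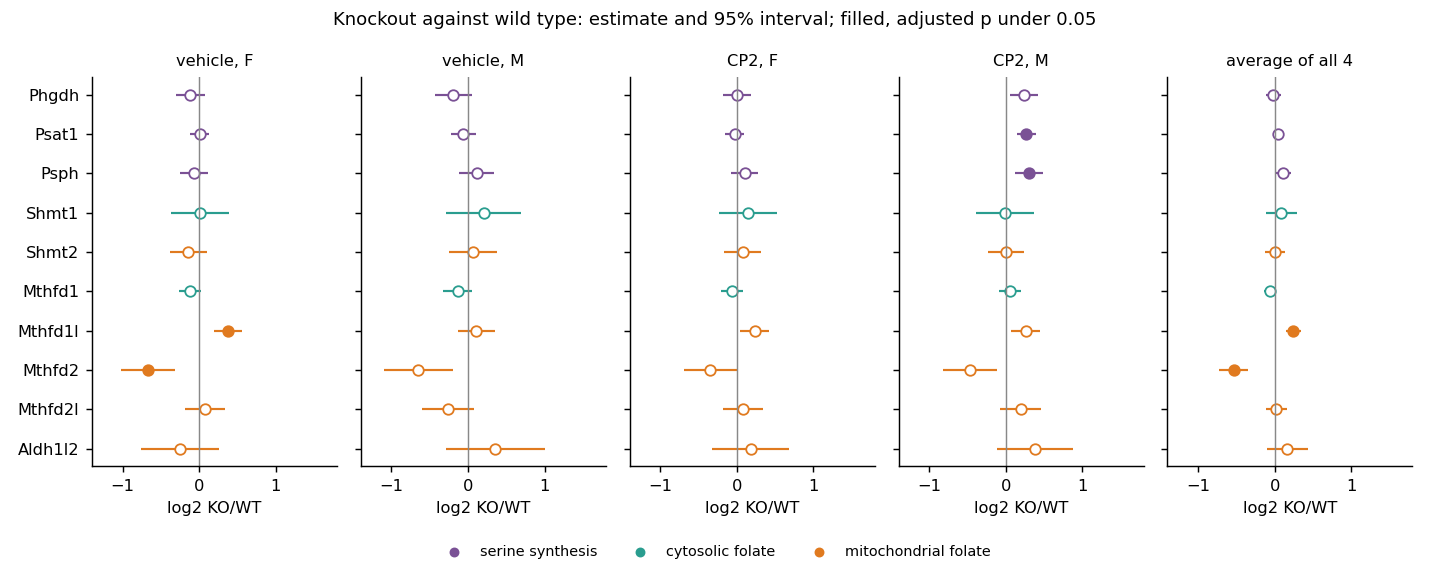
Log2 difference between KO and WT with its 95% interval for the 10 enzymes, in each letter and treatment and over all 4 strata; filled points passed an adjusted p under 0.05. Mthfd2 lies left of 0 and Mthfd1l right of 0 in every panel, and the intervals of the cytosolic Mthfd1 and Shmt1 include 0 in all 5.

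The other 3 mitochondrial enzymes, Shmt2, Mthfd2l and Aldh1l2, were called in 0 of 17 comparisons by edgeR. Shmt2 had at least 14.4 CPM in every brain, and its KO change over all strata was 0.00 (95% interval -0.13 to 0.13). Mthfd2l, the dehydrogenase isoform of adult brain, ranged from 9.55 to 16.8 CPM, with a KO change of 0.02 (95% interval -0.12 to 0.17). Whether Mthfd2 and its paralogue differed in their change was not tested. Aldh1l2, the mitochondrial formyltetrahydrofolate dehydrogenase, ranged from 2.81 to 10.4 CPM. The highest values belonged to single KO brains, L310 (M with vehicle, 10.4 CPM) and L234 (F with CP2, 9.50 CPM), and its KO change was 0.17 with a wide 95% interval of -0.10 to 0.44.

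The cytosolic enzymes Mthfd1 and Shmt1 were likewise called in 0 of 17 comparisons. Mthfd1 was the steadiest of the 10, between 32.2 and 46.5 CPM, and its KO change was -0.06 (95% interval -0.14 to 0.01). Shmt1 lay between 2.15 and 4.38 CPM, with a KO change of 0.09 (95% interval -0.12 to 0.29). These intervals leave room for changes of the size seen in Mthfd1l in Shmt1, but not in Mthfd1.

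Mthfd1l was then compared with Mthfd1, and Shmt2 with Shmt1, directly as ratios of mitochondrial to cytosolic partner within each brain. Mthfd2, which moved opposite to Mthfd1l, and Mthfd2l were not set against Mthfd1. The ratios below therefore do not describe the mitochondrial enzymes as a whole. For Mthfd1l over Mthfd1, F with vehicle gave 0.446, 0.474, 0.534, 0.425 and 0.425 in the KO brains and 0.315, 0.383, 0.311, 0.334 and 0.279 in the WT brains. All 5 KO ratios were above all 5 WT ratios. The difference in mean log2 ratio was 0.51 (p = 0.00794 in an exact permutation test, two-sided, and no smaller value is possible with 5 brains a side). It did not pass after adjustment over the 16 ratio comparisons (exact adjusted p = 0.127). A lone comparison at the smallest possible p cannot pass that adjustment, so no conclusion is drawn from this. The KO ratio was also higher in M with vehicle by 0.24 (exact permutation p = 0.3, where 3 against 3 brains cannot go below 0.1), in F with CP2 by 0.28 (exact permutation p = 0.0714) and in M with CP2 by 0.21 (exact permutation p = 0.0635). None of these passed, and with 3 against 3 brains none could. CP2 brains had lower Mthfd1l to Mthfd1 ratios than vehicle brains in KO F (-0.28, exact permutation p = 0.0635), KO M (-0.29, exact permutation p = 0.0714) and WT M (-0.26, exact permutation p = 0.0714), again without passing, and in WT F the difference was -0.06 (exact permutation p = 0.611). In M these were 5 against 3 brains, where the exact p cannot go below 0.0357.

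For Shmt2 over Shmt1 no shift was measurable. Group medians ran from 5.97 to 7.31 counts of Shmt2 per count of Shmt1, and the 8 differences in mean log2 ratio lay between -0.15 and 0.12 (exact two-sided permutation p from 0.3 to 0.833). Within a group the ratio varied widely, from 3.35 to 6.64 in KO F with vehicle, so a modest shift would not have been detected.

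**Figure D4:**
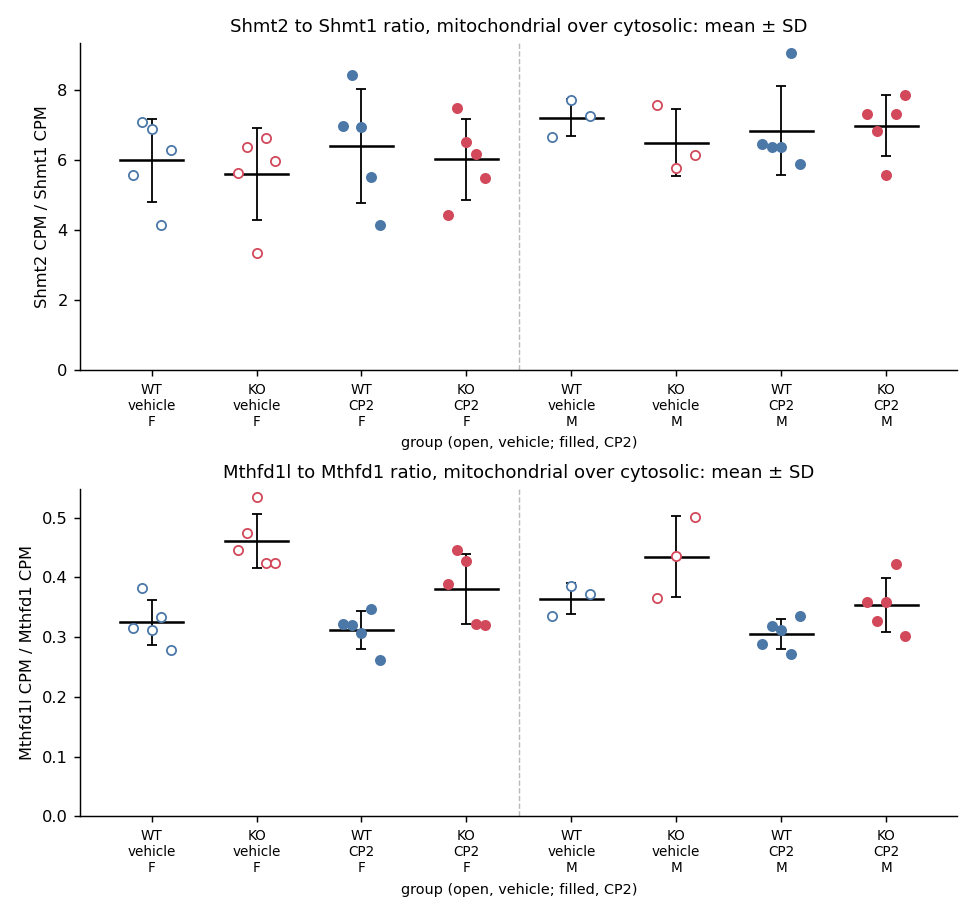
Ratio of mitochondrial to cytosolic partner in each brain, in CPM over CPM on a linear axis, for Shmt2 over Shmt1 (top) and Mthfd1l over Mthfd1 (bottom) by group, with the mean ± SD. In F with vehicle all 5 KO brains lie above all 5 WT brains for Mthfd1l over Mthfd1, and the Shmt2 to Shmt1 ratio overlaps in all groups compared.

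The serine synthesis genes did not separate the genotypes with vehicle: 0 of 3 were called in either letter or in their average, and their log2 changes with vehicle averaged over F and M were -0.15 for Phgdh, -0.03 for Psat1 and 0.02 for Psph. In KO M given CP2, 2 of the 3 were called higher than in WT M given CP2 (Psat1 and Psph) and 2 of the 3 higher than in KO M given vehicle (Phgdh and Psat1). Both comparisons share the KO M brains given CP2, so they are not independent.

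Psat1, the aminotransferase of the pathway, had 152, 135, 150, 135 and 169 CPM in KO M with CP2 and 134, 125 and 114 CPM in KO M with vehicle. The WT M brains had 125, 119, 119, 130 and 121 CPM with CP2 and 127, 130 and 132 CPM with vehicle. The 5 KO brains given CP2 were above all other M brains, and the share of all tested genes that part in this way was not computed. Between KO M and WT M given CP2, 11.1% of all tested genes did not overlap. In F, Psat1 had 133, 143, 141, 140 and 135 CPM in KO with CP2, 144, 134, 119, 146 and 145 CPM in KO with vehicle, 132, 137, 139, 150 and 149 CPM in WT with CP2, and 151, 130, 131, 144 and 128 CPM in WT with vehicle, with no group apart.

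Phgdh, which commits carbon to serine, had 103, 83.4, 110, 87.1 and 126 CPM in KO M with CP2 and 83.9, 87.7 and 65.0 CPM in KO M with vehicle. In WT M it had 96.3, 77.2, 79.5, 96.8 and 82.2 CPM with CP2 and 93.6, 91.1 and 85.4 CPM with vehicle. These groups overlapped, with L299 highest at 126 CPM and L322 lowest at 65.0 CPM. In F, Phgdh stayed between 72.4 and 104 CPM in all 4 groups.

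Psph, the phosphatase that ends the pathway, had 18.8, 17.9, 21.1, 16.6 and 22.2 CPM in KO M with CP2 and 19.0, 15.5 and 15.4 CPM in KO M with vehicle. In WT M it had 16.3, 14.1, 16.4, 16.6 and 15.0 CPM with CP2 and 15.9, 15.8 and 14.5 CPM with vehicle. Here 4 of the 5 KO brains given CP2 exceeded every WT M brain, and the fifth, L298, lay just under the highest of them. In F, Psph lay between 15.0 and 21.2 CPM with overlapping groups.

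In M with CP2, 2 of the 10 enzymes were called higher in KO than in WT, Psat1 by 0.27 (SE 0.064, edgeR adjusted p = 0.00444) and Psph by 0.30 (SE 0.091, edgeR adjusted p = 0.0269), against 9.99% of all tested genes called in either direction and 4.75% called higher. Phgdh was at 0.24 (SE 0.094, edgeR adjusted p = 0.101) and was called without L291 (0.30, edgeR adjusted p = 0.0369) or L298 (0.29, edgeR adjusted p = 0.0463). The Psat1 call held without each brain in turn (0.22 to 0.30). The Psph call ended without L262, L289, L292 or L299 (0.25 to 0.29, edgeR adjusted p from 0.063 to 0.106) and when no genes were filtered for low counts (0.31, edgeR adjusted p = 0.0594). Averaged over F and M, Psph was called with CP2 (0.20, SE 0.064, edgeR adjusted p = 0.034), and that call ended without any one of 8 brains (L227, L233, L257, L262, L272, L289, L292 and L299, with values from 0.18 to 0.20). In the same average Psat1 was at 0.12 (edgeR adjusted p = 0.0776), and it was called by DESeq2 and without L281, L291 or L298 (0.12 to 0.14).

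In KO M, CP2 against vehicle gave 2 called enzymes of 10, Phgdh at 0.37 (SE 0.11, edgeR adjusted p = 0.0391) and Psat1 at 0.25 (SE 0.074, edgeR adjusted p = 0.0361), against 5.1% of all tested genes. Psat1 was the member without overlap between these groups, as were 15.3% of all tested genes. Psph was at 0.21 (SE 0.11, edgeR adjusted p = 0.257). Both calls rested on a few brains. Each ended without L266, L292, L299 or L322, where Phgdh lay between 0.25 and 0.36 and Psat1 between 0.20 and 0.25, and Phgdh also ended without L310 (0.42, edgeR adjusted p = 0.052) and Psat1 without L319 (0.26, edgeR adjusted p = 0.104). In KO F, CP2 against vehicle gave 0 called enzymes by edgeR and by DESeq2, against 0.0859% of all tested genes by edgeR, with an unadjusted p under 0.05 for 2 by either tool.

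Several measures moved together with the serine synthesis genes in these M groups. The outside-gene share was lower in KO M with CP2 (5.18% to 9.06%) than in KO M with vehicle (11.3% to 13%), without overlap. The share was also lower there than in WT M with CP2 (9.05% to 13.2%), where the ranges barely overlapped. As a covariate it ended all of these calls: Psat1 went to 0.16 (edgeR adjusted p = 0.267) and Psph to 0.20 (edgeR adjusted p = 0.385) for KO against WT with CP2, and for CP2 in KO M Phgdh went to 0.09 (edgeR adjusted p = 0.881) and Psat1 to 0.13 (edgeR adjusted p = 0.715). With the title number as a covariate the 2 enzyme calls for CP2 in KO M were also lost, at 0.39 for Phgdh (edgeR adjusted p = 0.0645) and 0.26 for Psat1 (edgeR adjusted p = 0.0675). Because the outside-gene share did not overlap between the KO M groups, its covariate fit cannot fully tell it from CP2 there. The targeted gene Ndufs4 was itself called higher for CP2 in KO M (0.34, SE 0.099, edgeR adjusted p = 0.0368). Its groups did not overlap there, as 15.3% of all tested genes did not. In KO F its CP2 change was 0.04 (edgeR adjusted p = 0.924).

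Some cell type markers moved the same way, and values for the lists with a called gene or with all genes on one side follow. The summed level of 6 oligodendrocyte markers was 8.21e+03 to 1.51e+04 CPM there, 7.83e+03 to 9.22e+03 CPM in KO M with vehicle and 8.65e+03 to 1.12e+04 CPM in WT M with CP2. Of these 6, 1 was called higher in each comparison. The summed level of 6 microglia markers was 351 to 462 CPM in KO M with CP2, 305 to 367 CPM in KO M with vehicle and 276 to 347 CPM in WT M with CP2, with 3 of 6 called higher for CP2 in KO and 5 of 6 for KO against WT. The summed level of 8 astrocyte markers was 6.06e+03 to 7.13e+03 CPM, against 4.66e+03 to 6.49e+03 CPM and 4.97e+03 to 5.84e+03 CPM, with 2 of 8 called higher in each. No marker of these 3 lists was called lower in these comparisons. Of 6 mural and fibroblast markers, 3 were called higher for KO against WT (median log2 difference 0.72) and 0 for CP2 in KO (0.36). Of 6 choroid plexus markers 0 were called in either comparison, but all 6 were above 0 in both (medians 0.43 and 0.94), as were all 4 red cell markers (0.20 and 0.92) and both oligodendrocyte precursor markers (0.10 and 0.16), again with 0 called. For KO against WT, Stmn2 of the neuron list and Wfs1 of the hippocampal list were called higher and Dsp of the hippocampal list lower, and for CP2 in KO all 7 hippocampal markers were below 0 (median -0.19) with 0 called. The part of other cell types' RNA in the rise of the serine synthesis genes was not tested.

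**Figure D5:**
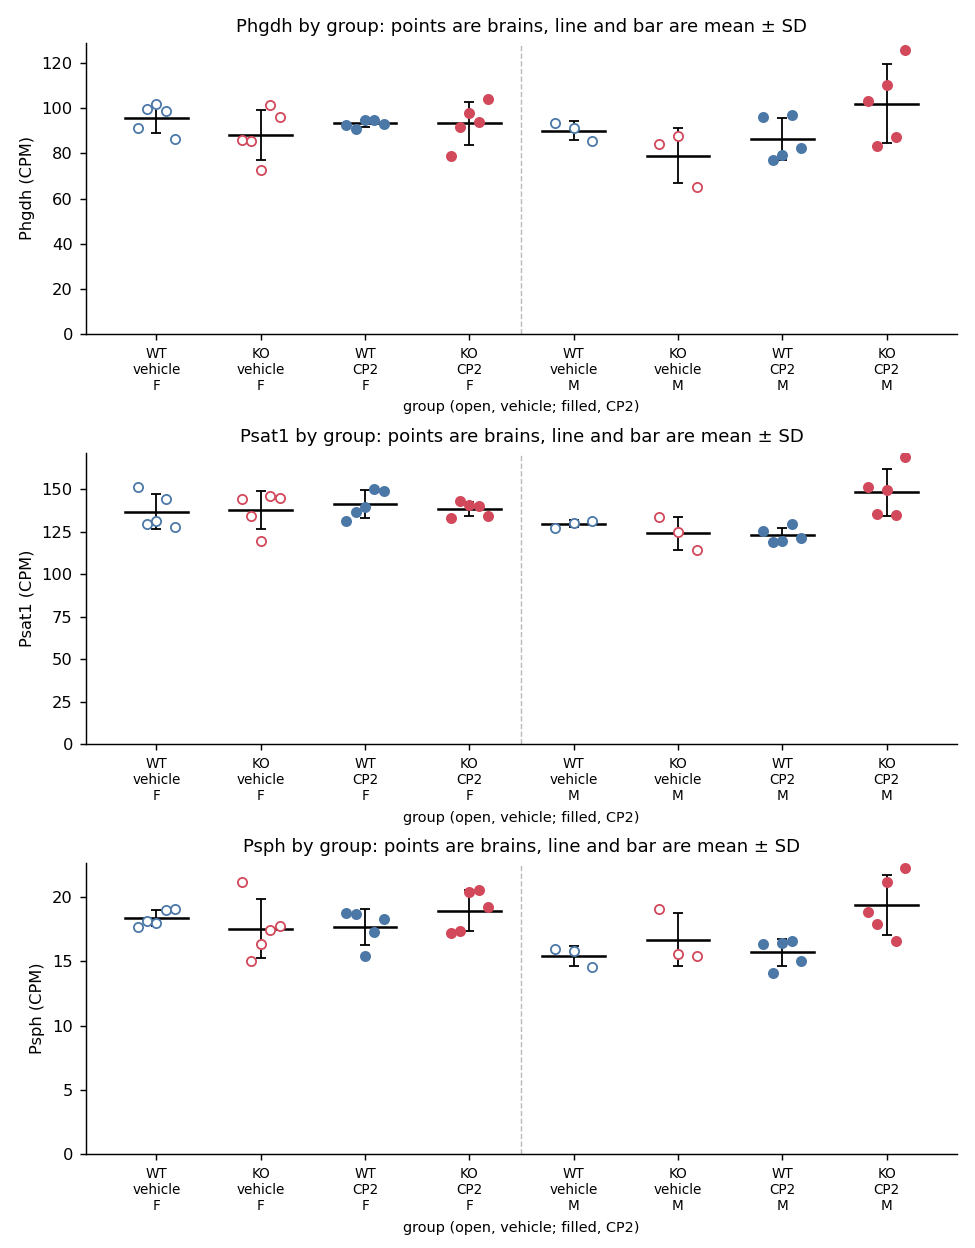
Phgdh, Psat1 and Psph in CPM for each brain by group, with open points for vehicle, filled points for CP2, and a line and bar for the group mean ± SD. The means of KO M with CP2 (102, 148 and 19.3 CPM) are the highest of the 8 groups for all 3 genes, and in F the groups overlap.

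In KO averaged over F and M, CP2 against vehicle gave 0 called enzymes of 10 by edgeR and by DESeq2, against 3.91% of all tested genes by edgeR, with 4 at an unadjusted p under 0.05 by either tool. The nearest was Phgdh (0.23, SE 0.072, edgeR adjusted p = 0.0653), which was called without L201, L282, L283, L291 or L298 (0.24 to 0.26) and fell to 0.03 with the outside-gene share as a covariate. In WT, CP2 against vehicle gave 0 called enzymes, averaged or within F or M, by edgeR and by DESeq2, and 0 called genes of all 25601 by edgeR. Among the 10, Mthfd1l alone had an unadjusted p under 0.05 in WT, with a log2 change of -0.31 in M (SE 0.11) and -0.18 averaged over F and M. In WT M all 5 brains given CP2 were below all 3 given vehicle for this gene, as 4.54% of all tested genes did not overlap in that comparison. Its change with CP2 in KO, averaged over F and M, was also -0.18 (SE 0.072, edgeR adjusted p = 0.171).

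Whether the CP2 change depended on genotype was tested with the interaction term, and 0 of the 10 enzymes passed in edgeR or DESeq2, against 0.715% of all tested genes in edgeR. Unadjusted p values were under 0.05 for 2 enzymes in edgeR and 1 in DESeq2. The largest term was that of Phgdh (0.27, 95% interval 0.07 to 0.47, edgeR adjusted p = 0.186), and Mthfd1l had 0.00 (95% interval -0.20 to 0.21). Differences between F and M were called for 0 of the 10 in the KO change with vehicle (0.102% of all tested genes), the KO change with CP2 (0.82%) and the CP2 change in KO (0.691%), with both tools. Unadjusted p values were under 0.05 for 0, 1 and 1 enzymes, in that order and by either tool. For Psat1 the F minus M difference in the KO change with CP2 was -0.30 (95% interval -0.48 to -0.12, edgeR adjusted p = 0.0935), and without L298 it was called (-0.33, edgeR adjusted p = 0.0483). A difference between F and M in the serine synthesis genes was thus called in that 1 fit and not with all brains.

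After the group means were removed, the enzymes varied together only in part. Over the 36 brains the 45 pairs had Pearson correlations of log2 CPM between -0.35 and 0.75 (median 0.27), and 33 were positive. These are descriptions, since all pairs share libraries and depth. Phgdh went with Mthfd1 (r = 0.75, rho = 0.72, 0.74 in F and 0.75 in M, and 0.68 without the 2 brains farthest from the median) and with Psat1 (r = 0.69, rho = 0.61, 0.48 in F and 0.89 in M, 0.57 without 2 brains). Mthfd2 and its partner step Mthfd1l were not among the close pairs. Psat1 followed the summed oligodendrocyte markers (r = 0.77, rho = 0.76, 0.78 in F and 0.76 in M, 0.73 without 2 brains), and Psph the summed microglia markers (r = 0.73, rho = 0.69, 0.72 in F and 0.74 in M, 0.69 without 2 brains). Phgdh ran against the outside-gene share (r = -0.61, rho = -0.61, -0.74 in F and -0.52 in M, -0.55 without 2 brains). Mthfd2 ran against the summed striatal markers (r = -0.58, rho = -0.59, -0.62 in F and -0.45 in M, -0.52 without 2 brains).

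The genes most like each enzyme within groups were taken among 15420 genes with a mean of at least 1 CPM, as the 3 with the highest Pearson correlation of log2 CPM over the 36 brains. For Psat1 they were Gsn (0.85), Gal3st1 (0.83) and Mog (0.82), of which Mog, a myelin protein, is one of the oligodendrocyte markers. For Aldh1l2 the nearest was Gfap (0.82), the intermediate filament of astrocytes, and for Psph Tyrobp (0.69), an adaptor protein of microglia. The correlation of Aldh1l2 with the summed astrocyte markers was 0.53, and 0.32 without L234 and L310, where Aldh1l2 was highest. Its correlation with Gfap was not computed without these brains. For Mthfd2 they were Cept1 (0.82), Elovl6 (0.82) and Katnal1 (0.80), and for Shmt2 Fabp5 (0.81), Slc25a1 (0.76) and Pxdc1 (0.73). Phgdh was nearest to Abhd4, Gamt and Gpr62 (all 0.80) and Mthfd1 to Cyp4f16 (0.78). Mthfd1l had no close companion, with Tut1 (0.61), Zfp687 (0.60) and Rnf41 (0.58) at the top, nor did Shmt1 (Tpm2, 0.63), and Mthfd2l was nearest to Calca (0.73).

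Around the 10 enzymes, 71 genes in 6 lists of neighbouring pathways were read the same way, and 70 were tested. In KO against WT with vehicle, averaged over F and M, 7 of them were called lower, against 3.8% of all tested genes called lower and 6.67% called in either direction. Gldc, the decarboxylase of the mitochondrial glycine cleavage system, fell by 0.43 (SE 0.097, edgeR adjusted p = 0.0058) and Slc6a9, a glycine transporter, by 0.45 (SE 0.097, edgeR adjusted p = 0.00344). Slc46a1, the proton-coupled folate transporter, fell by 0.44 (SE 0.093, edgeR adjusted p = 0.00301). In the methionine cycle Mtrr, the reductase that keeps methionine synthase active, fell by 0.36 and Ahcyl2 by 0.22. Aldh7a1, which oxidises betaine aldehyde on the route from choline, fell by 0.37, and Chac1, a glutathione-degrading ATF4 target, by 0.43. With the outside-gene share as a covariate Aldh7a1 alone of these 7 was still called. Gldc, Slc6a9, Slc46a1 and Aldh7a1 were called without each of the 16 vehicle brains in turn. The call ended for Mtrr without L252, L281, L285, L300 or L322 (values over all such fits -0.39 to -0.32), for Ahcyl2 in all but 4 such fits (-0.24 to -0.19) and for Chac1 in all but 7 (-0.53 to -0.36).

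With CP2 on both sides, 7 of the 70 were called, 1 higher and 6 lower, against 11.6% of all tested genes. Gldc (-0.28) and Mtrr (-0.34) fell here as they did with vehicle. Mat2a, which makes S-adenosylmethionine, fell by 0.28, and Gcsh, the lipoyl carrier of glycine cleavage, rose by 0.16. From the ATF4 list Atf4 itself fell by 0.33 (SE 0.080, edgeR adjusted p = 0.00493) and Aldh18a1 by 0.28. Gdf15 was called at -2.40 (SE 0.78, edgeR adjusted p = 0.0363) on very few reads, at most 20 in any brain given CP2, and was not called when no genes were filtered for low counts (edgeR adjusted p = 0.0522). CP2 against vehicle in KO raised Gldc (0.30), Gcsh (0.20) and Aldh7a1 (0.26), against 3.91% of all tested genes called, so Gldc was lower in KO than in WT with both treatments and higher in KO with CP2 than with vehicle. The Gldc comparisons share KO brains, so they are not independent. In the genotype by CP2 interaction 0 of the 9 genes of its list were called. These 3 CP2 calls in KO all ended with the outside-gene share as a covariate (Gldc 0.16, Gcsh 0.08, Aldh7a1 0.18), as did Gcsh in KO against WT with CP2 (0.11). Leaving out 1 brain ended the CP2 call in KO in all but 5 of 18 fits for Gldc (0.25 to 0.34) and all but 9 for Gcsh (0.17 to 0.22), and in 0 for Aldh7a1. For KO against WT with CP2, Mtrr, Mat2a and Atf4 were called in all 20 such fits, Gldc in all but that without L263, Aldh18a1 in all but those without L201, L233 or L263 (-0.34 to -0.24), Gcsh in 12 (0.13 to 0.19) and Gdf15 in 10 (-3.13 to -2.14).

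Over all 4 strata, 0 of the 19 tested genes of the ATF4 and amino acid response list were higher in KO and 6 were lower, against 7.62% of all tested genes called higher and 8.61% lower. Those 6 were Atf4 (-0.31), Ddit3 (-0.14), Chac1 (-0.31), Pck2 (-0.16), Aldh18a1 (-0.27) and Gdf15 (-1.92, with 63 reads in all 18 KO brains and 168 in all 18 WT brains). The list's median log2 difference was -0.08 and that of all tested genes 0.02. Mthfd2 (-0.53) lay on the same side as these 6 genes, whereas Mthfd1l (0.24) lay on the other, and Phgdh (-0.02), Psat1 (0.05) and Psph (0.11) were not called. No gene of this list was called higher in KO in that comparison. Single strata differed: within F with vehicle 1 of the 19, Atf3, was called higher and 0 lower. There 2.02% of all tested genes were called higher. Within M with CP2, 0 were called higher and 1, Atf4, lower. The part of ATF4 in the change of Mthfd2 was not tested.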

How the data were processed

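Poly(A) RNA from 36 brains was sequenced with a TruSeq protocol, per the labels' protocols. The deposited table holds whole-number counts per gene. Per the submitters' processing notes, STAR, HTSeq and the build GRCm39 were used; versions, annotation release and strand setting are not given in the sources used here, so reads of overlapping or antisense genes cannot be told apart. The 5 summary lines that name no gene, 12% to 19.6% of a library, were left out. Of 56980 identifiers, 52073 (91.4%) matched a symbol in GENCODE M21. All columns matched a sample.

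CPM were computed here from the deposited counts with TMM library sizes; CPM per kb used exon lengths of GENCODE M21. Genes were filtered with filterByExpr and tested with edgeR 4.0.16 (R 4.3.3, limma 3.58.1), by quasi-likelihood over all 36 samples with one coefficient per group and 17 contrasts. P-values were Benjamini-Hochberg adjusted over the 25601 genes tested, and 0.05 was the threshold. Standard errors come from the F statistic, and 95% intervals are 1.96 standard errors either side. The procedure was tested on simulated data with changes larger than those described here. That test does not show how well changes as small as those of the enzymes are found. Ratios were compared by exact two-sided permutation tests, adjusted over 16 comparisons.

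Alternatives were DESeq2 1.42.0, other size factors, no filter, the share of reads outside genes or the title number as covariate, leaving out L266 and L291, and leaving out each sample. Every enzyme is named. Of each of the 6 wider lists, up to 4 called genes per direction with the largest change were named in 3 averaged comparisons; 1 result under this rule is not reported here. Members and lists were chosen with earlier results of these data known. Promoters are from RefSeq on GRCm38.p6, so their coordinates are not of the build of the counts.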

Additional observations from a re-analysis of the deposited data

Results flagged for a closer look

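Within groups of 5 brains, 1 brain stood apart from the other 4 in 3 of the 60 groups and genes examined, and chance gives about 1 in 20. Shmt2 was 23.1 CPM in L234, a KO F brain with CP2, and 17.5 to 18.7 CPM in the others of its group. Mthfd1l was 11.2 CPM in L311, a WT F brain with CP2, and 13.2 to 13.8 CPM in the others. Mthfd2 was 8.02 CPM in L266, a KO M brain with CP2, and 5.57 to 6.1 CPM in the others.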

How the results depend on the processing

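No paired analysis was possible because every sample carries a title number of its own and the groups share none. No value changed sign under any alternative run among the called genes and ratio results that were followed. Uncalled values near 0 are not covered by this statement. Of the 10 enzymes, KO against WT with vehicle, averaged, called 1, which became 2 with DESeq2, with RLE size factors and with the title number as covariate, and 0 with the outside-gene share (reads placed outside genes) as covariate. With that covariate, KO against WT with vehicle in F went from 2 to 0, KO against WT with CP2 in M from 2 to 1, and CP2 against vehicle in KO M from 2 to 0. In M with CP2 that 1 call was Mthfd2, newly gained, while Psat1 and Psph were both lost. CP2 against vehicle in KO M also went to 0 with the title number and to 1 without L266 and L291, and its average over F and M from 0 to 1 without them. KO against WT with CP2 in M went to 1 with no filter. DESeq2 also took KO against WT with CP2 from 3 to 4 averaged (adding Psat1) and from 2 to 3 in M (adding Mthfd2). The cause of these changes was not tested. Over fits that left out 1 brain, counts ran from 1 to 2 with vehicle averaged, 0 to 2 in F, 1 to 4 with CP2 averaged, 1 to 3 in M, 0 to 1 for CP2 in KO averaged, 0 to 2 in M and 0 to 1 for the F minus M difference with CP2. The other comparisons kept their counts. Over all genes the outside-gene covariate lowered the calls for vehicle in F from 1270 to 156 and for CP2 in KO M from 1306 to 0. Depth did not limit detection of these genes, each with at least 118 counts in a brain, but 3 brains in the M vehicle groups limit precision.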
